A study of Arabidopsis thaliana with 18 samples.

Results

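Roots of *Arabidopsis thaliana* seedlings kept without phosphate (P0) were compared with roots at the control supply of 1.25 mM phosphate (P1.25). Both groups were wild-type plants of the Columbia background, grown hydroponically on a mesh for 5 days in diluted Murashige and Skoog medium with sucrose and then for 7 days in the treatment medium. All plants were 12 days old when the tissue was taken. In the P0 medium potassium sulphate took the place of potassium phosphate, so the 2 groups differed in sulphate supply as well as in phosphate. The comparison rests on 6 arrays, 3 titled as root at P0 and 3 titled as root at P1.25, of 18 arrays in the series. The other 12 arrays (root at 20 mM phosphate and shoot at all 3 supplies) entered the statistical model to estimate the spread. Each array was an Affymetrix AraGene 1.0 ST array hybridized with RNA of whole roots, so that a change in the share of a cell type and a change of RNA within a cell cannot be told apart. The methods describe 3 independent biological experiments for each condition. Levels are given as log2 intensities, changes as P0 minus P1.25 on the same scale, with the standard error (SE) of the model.

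Phosphate starvation is classically read through the genes under the PHR1 and SPX regulators, which raise phosphate uptake, release phosphate from organic compounds and replace phospholipids. In Arabidopsis the root itself is also remodelled: growth of the primary root stops, an arrest known to need malate export by ALMT1, the ferroxidase LPR1 and iron in the cell wall. Iron uptake, in turn, runs through the reductase FRO2 and the transporter IRT1 under the transcription factor FIT, which the files call FRU. The genes described here are those outside the classic starvation set. Of the 45 classic genes with a transcript 34 were higher at P0 and none was lower. However, 43 of the 45 (33 of the rises) were named by the study's tables alone, which hold mostly genes chosen for a change. SPX3, the gene of this set with the largest rise, had levels of 2.98, 2.82 and 3.52 at P1.25 and of 8.89, 9.09 and 8.80 at P0.

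Of 38408 transcripts, 3544 (9.23%) passed an adjusted p of 0.1 and a change beyond 2-fold, 1800 of them higher at P0 (4.69%) and 1744 lower (4.54%). Rises were larger than falls. The change exceeded 4-fold for 524 rises and 112 falls and exceeded 16-fold for 33 rises and 6 falls. The balance of the directions depended on which transcripts were counted and on the scaling. Rises made up 50.8% of calls, 59.5% when transcripts with identical values were counted once, 58.5% after quantile normalization within root and 62.3% after centring on the array median. The median difference over all transcripts was -0.09. Arrays of the 2 groups did not overlap for 1781 of the rises and 1608 of the falls, against 41.0% of all transcripts.

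**Figure D1:**
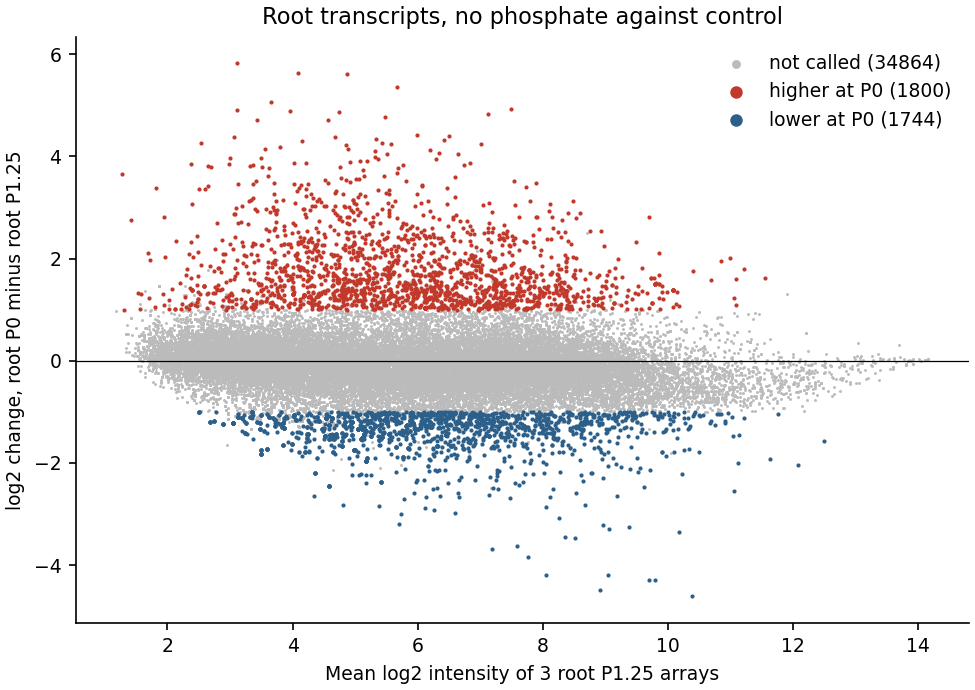
Change of each root transcript (log2, P0 minus P1.25) against its mean log2 intensity over the 3 root P1.25 arrays, with the 1800 transcripts called higher, the 1744 called lower and the rest not called. Rises reach further from 0 than falls, as 33 rises and 6 falls exceed 16-fold.

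Gene names limited what could be read from these calls. Throughout, a gene with a transcript is one to which a transcript could be assigned by name. A listed gene without one may be among the unnamed transcripts and was not necessarily unmeasured. The platform table gave 1 gene to 16722 transcripts, and the portion of the study's supplementary tables used here named another 1119. Of the latter, 529 were first named by the authors' list of changes in root at P0. Another 351 came from their list for shoot at P0 and 239 from a table of all transcripts. Most were thus chosen for a change, and changed genes are over-represented among them. With 1 transcript per gene, 4.99% of the genes named by the platform table were higher and 2.45% were lower, whereas 40.6% of the genes named by the study's tables alone were higher and 19.9% lower. Genes of the root list were chosen for this same comparison, so a call of such a member follows largely from its naming. The shares of 40.6% higher and 19.9% lower stand beside counts of members named by the study's tables alone for scale only. A count near or above these shares says nothing particular about a group. Falls were less well covered by names than rises: of the 20567 transcripts without a single gene name 514 were higher (2.5%) and 1117 lower (5.43%), out of 1800 rises and 1744 falls, and these are not described. A block of 7083 transcripts has identifiers below the first one that the platform table names. It held 751 of the 1744 falls and 91 of the 1800 rises.

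The 20 largest rises with 1 gene were led by JRG21, which codes for an oxygenase of the jasmonate oxidase family. JRG21 had levels of 3.95, 3.92 and 4.38 at P1.25 and 9.72, 9.70 and 9.74 at P0, a change of 5.63 ± 0.73 (SE, adjusted p = 0.000101, limma). All 3 P0 arrays lay far above the highest control array. A pair of neighbouring genes for class III peroxidases, secreted enzymes that oxidise phenolic compounds and build or loosen walls, were also among the 20. The first, AT5G06730, was at 5.82, 5.49 and 5.68 at P1.25 and at 11.07, 11.07 and 10.97 at P0, a change of 5.37 ± 0.28 (adjusted p = 3.15e-08). The other, PA2, was at 4.72, 4.52 and 4.47 and rose to 9.37, 9.27 and 9.19, a change of 4.71 ± 0.10 (adjusted p = 8.86e-13). The P0 arrays of both genes differed from each other by less than the control arrays did. The transcription factor gene BHLH92 rose by 4.90 ± 0.31 from control levels of 3.19, 3.27 and 2.87.

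Glycosidases, detoxifying enzymes and proteins of the defence against pathogens made up much of the rest of the 20. The beta-glucosidase genes BGLU27 (4.89), BGLU31 (4.37) and DIN2 (4.32) rose, as did the tau-class glutathione transferase genes GSTU11 (4.24) and GSTU3 (4.15). YLS9 (4.34) and NHL25 (4.38) belong to the NDR1/HIN1-like family of membrane proteins that is known from pathogen responses. SBT3.3, a secreted subtilase known from immune priming, rose by 4.30 and AT1G57630, which codes for a Toll-interleukin-receptor domain protein, by 4.41. XTR6 (4.24) codes for an enzyme that cuts and rejoins xyloglucan chains of the wall, and OCT1 (4.18) for an organic cation and carnitine transporter. The remaining ones were AT5G39120 (4.93), the copper transport family gene AT5G52700 (4.87), the AAA-type ATPase gene AT5G40000 (4.82), AT1G55525 (4.77) and BAM5 (4.40). BAM5, a beta-amylase of the phloem, had the widest control arrays of the 20, at 4.94, 6.67 and 7.88, against 10.85, 10.96 and 10.86 at P0. Of the 20 genes, 12 were named by the platform table, and all 20 passed without the third control array as well.

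**Figure D2:**
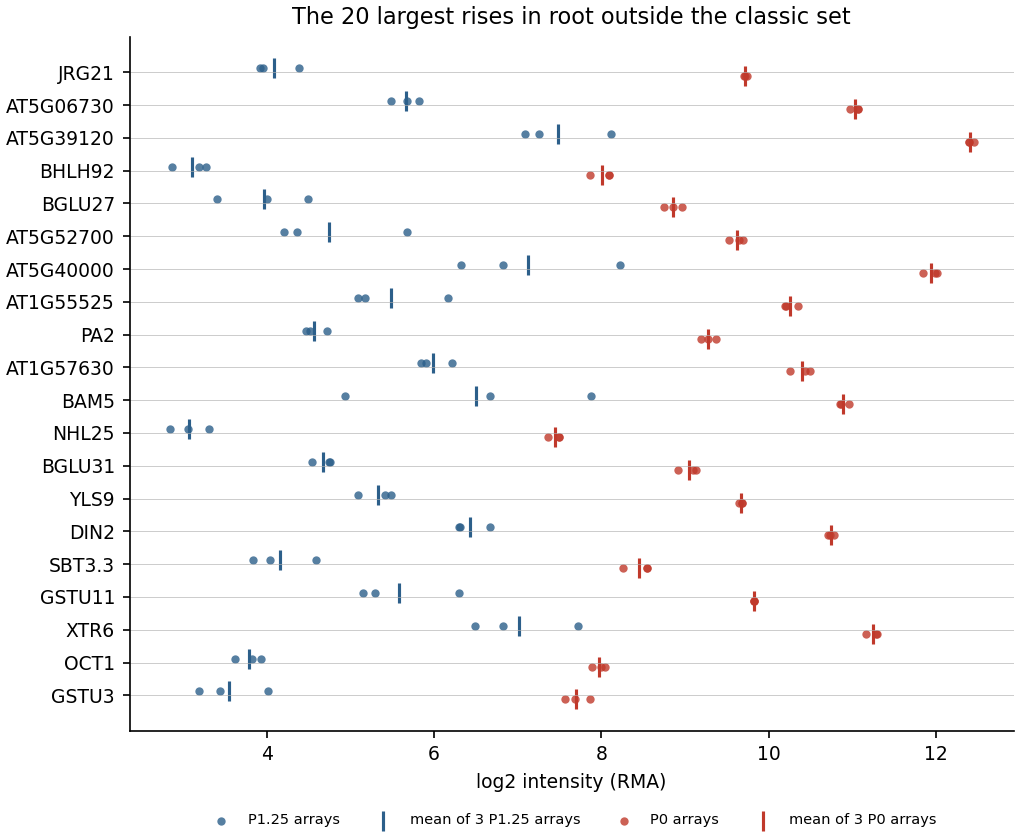
log2 intensity of the 20 genes with the largest rises outside the classic set in each of the 3 root P1.25 arrays and 3 root P0 arrays, with the mean of each group as a bar. Genes were chosen for separate arrays and run from JRG21 (5.63) to GSTU3 (4.15). BAM5 has the widest control arrays.

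The 20 largest falls with 1 gene were led by AT4G12545, which fell from 9.63, 8.98 and 8.11 at P1.25 to 4.67, 4.51 and 4.05 at P0, a change of -4.50 ± 0.49 (adjusted p = 2.52e-05). The groups were apart by more than 3 units at their nearest arrays. AT1G73600 fell from 9.88, 9.77 and 9.44 to 5.28, 5.56 and 5.39 (-4.29 ± 0.48, adjusted p = 3.21e-05) and AT3G01260 from 10.28, 10.15 and 8.93 to 5.42, 5.73 and 5.35 (-4.29 ± 0.35, adjusted p = 2.29e-06). The functions of these 3 genes are not described here. SLAH1, an anion channel homologue that is known to help load chloride into the root xylem, fell from 7.68, 8.18 and 7.41 to 3.88, 3.77 and 4.09 (-3.85 ± 0.20, adjusted p = 3.15e-08). No array of SLAH1 came within 3 units of the other group.

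FRO2 (-4.19), IRT1 (-2.83) and AT1G74770 (-3.22) also stood among the 20 largest falls and are described with the iron genes. The leucine-rich repeat kinase gene AT5G59680 fell by 3.3 and LCR85, a small cysteine-rich protein, by 2.88 on the log2 scale. The other 11 carried only an identifier and fell by 2.67 (AT2G44340) to 3.69 (AT2G22122). In 19 of the 20 the third control array was the lowest of its group, so that it lay on the side of P0. Without that array all 20 falls were still called. LCR85, with control levels of 7.16, 6.69 and 4.51, changed by -3.68 instead of -2.88.

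**Figure D3:**
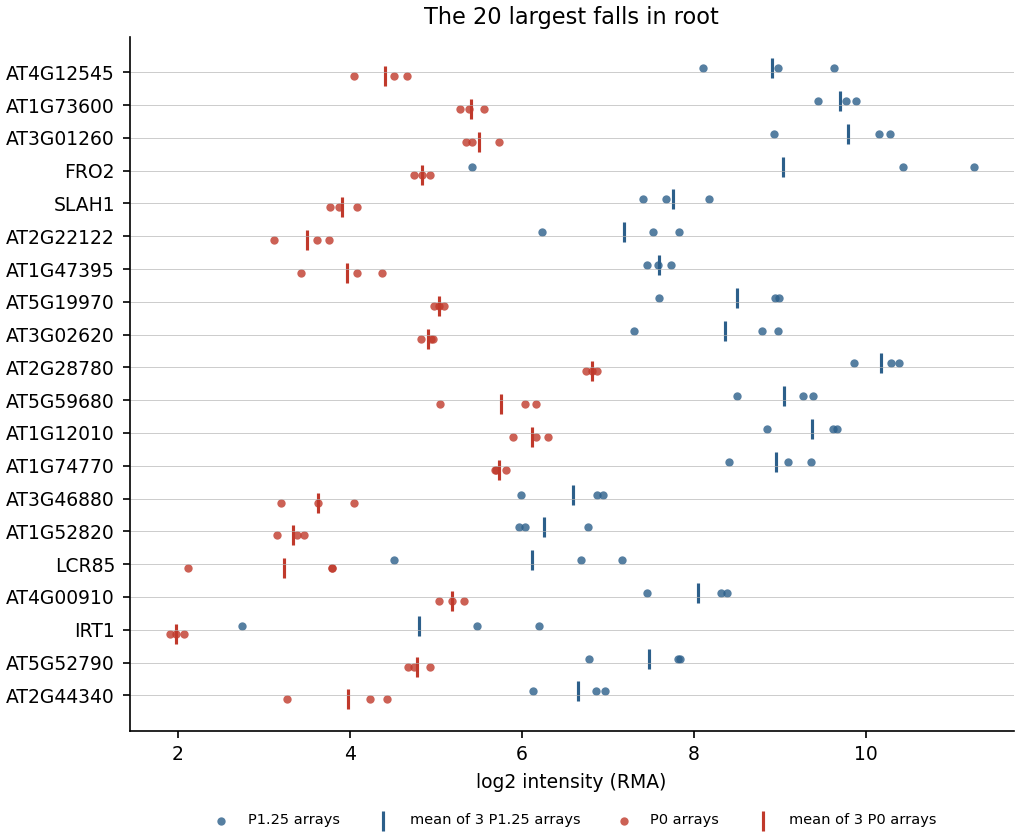
log2 intensity of the 20 genes with the largest falls in each of the 3 root P1.25 arrays and 3 root P0 arrays, with the mean of each group as a bar. The third control array is the lowest for 19 of the 20, and for FRO2 (5.42) and IRT1 (2.75) it lies next to the P0 arrays.

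A part of the genes of iron uptake and its regulators was lower at P0. Of 15 such genes with a transcript, out of 28 listed, 8 were lower and none was higher. The median change of the 15 was -1.42, against -0.02 over all named genes. Only 1 of the 8 was named by the platform table, which named 7 of the 15. The other 7 were among 8 named by the study's tables alone, where 19.9% of genes fell. The 7 members with a platform name had a median of -0.54, against -0.03 for all genes so named. AT1G74770, the called member named by the platform table, fell from 9.09, 9.36 and 8.41 to 5.7, 5.82 and 5.69 (-3.22 ± 0.37, adjusted p = 4.40e-05, limma). FRU, the FIT regulator, fell from 8.09, 8.14 and 6.91 to 5.33, 5.69 and 5.48 (-2.21 ± 0.46, adjusted p = 0.00301). The nicotianamine synthase genes NAS4 (-1.91) and NAS1 (-1.42), whose product chelates iron, and IREG2 (-1.30), a vacuolar transporter of nickel and other metals, fell too.

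The calls of several genes of this iron list depended on single arrays. FRO2, the ferric reductase, was at 10.43, 11.25 and 5.42 at P1.25 and at 4.84, 4.93 and 4.75 at P0 (-4.19 ± 1.46, adjusted p = 0.0537). IRT1, the ferrous iron transporter, was at 5.48, 6.2 and 2.75 and at 1.91, 1.98 and 2.07 (-2.83 ± 0.96, adjusted p = 0.0481). The first and second control arrays were high and the third was near P0. bHLH39, a partner of FIT, had the same order of arrays (5.94, 6.69 and 4.33 against 3.70, 3.42 and 3.3) and an adjusted p of 0.0983. Without the third control array the changes were -6.0 for FRO2 (adjusted p = 0.0056), -3.86 for IRT1 (0.0104) and -2.84 for bHLH39 (0.0552). When the first or the second control array was left out instead, FRO2 changed by -3.49 and -3.08 and IRT1 by -2.49 and -2.13, and neither was called. IREG2 and bHLH39 lost the call in the same fits, FRO2 and bHLH39 also without any 1 of the P0 arrays, and IRT1 without the first or the second. NAS1 lost it without the second control array and without the third P0 array (adjusted p = 0.102 and 0.103). Leaving out any 1 of the 6 arrays gave between 3 and 9 lower members. PYE, a regulator of iron homeostasis, was at 7.02, 7.2 and 7.25 at P1.25 and at 7.58, 7.81 and 7.68 at P0, a difference under the 2-fold limit.

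Among 4 iron storage genes with a transcript, 2 rose and the others were not called, all 4 named by the study's tables alone, where 40.6% of genes rose. FER1, the iron-storing ferritin, rose from 7.90, 7.75 and 8.64 to 11.04, 11.06 and 10.99 (2.93 ± 0.27, adjusted p = 6.61e-06). AT1G21140, annotated as a vacuolar iron transporter-like protein, rose from 5.16, 5.77 and 5.63 to 8.70, 8.71 and 8.43 (3.1 ± 0.17, adjusted p = 5.33e-08). The groups of both genes were separate by more than 2 units at the nearest arrays.

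The list of organic acid exudation and root growth arrest held 4 genes with a transcript. Of these, 3 rose, 2 of them among 3 named by the platform table, where 4.99% of all genes rose. The other was the 1 member named by the study's tables alone, where 40.6% of genes rose. ALMT1, the malate channel, rose from 6.25, 5.86 and 5.64 to 8.52, 8.44 and 8.22 (2.47 ± 0.17, adjusted p = 4.88e-07). The ferroxidase gene LPR2 rose from 7.29, 7.42 and 7.86 to 9.43, 9.48 and 9.37 (1.91 ± 0.14, adjusted p = 1.01e-06). Its relative LPR1 was at 5.32, 5.44 and 4.97 at P1.25 and at 5.24, 5.21 and 5.18 at P0, so its arrays overlapped (-0.03 ± 0.20). AT1G51340, the other member that rose, changed by 1.34 ± 0.19.

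Genes of sulphate uptake and assimilation rose or were not called. Of 8 sulphate genes with a transcript, 4 rose and none fell, with 1 of the 3 members named by the platform table among the rises. SULTR1;3, a sulphate transporter of the phloem, rose from 3.84, 3.90 and 4.81 to 7.24, 7.10 and 7.14 (2.98 ± 0.25). SULTR3;4, which is known to distribute phosphate, rose by 2.00 ± 0.15 and SULTR2;1 by 1.28 ± 0.27. BGLU28, a myrosinase-like gene known from sulphur deficiency, rose by 2.33 ± 0.38. The assimilation genes APR1 and APR3 both changed by 0.38 and were not called. The P0 medium held more sulphate than the control medium, and the part of sulphate in these values was not tested.

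Of 23 listed nitrate genes, 5 had a transcript that could be named. NRT1.8, which retrieves nitrate from the xylem, rose from 5.34, 5.89 and 6.06 to 9.56, 9.61 and 9.61 (3.83 ± 0.32, adjusted p = 3.19e-06). In roots at 20 mM phosphate, compared with the same control arrays, NRT1.8 changed by 3.79. NIR1, the nitrite reductase, was at 10.35, 10.24 and 10.35 and at 9.33 in all 3 P0 arrays, a difference of -0.99 that lay just under the 2-fold limit and passed it without the second control array (-1.02). NRT2:1, a high-affinity nitrate transporter, was at 6.21, 5.87 and 8.13 at P1.25 and at 5.53, 5.36 and 5.56 at P0 (-1.25 ± 0.46, adjusted p = 0.0673). Its call rested on the third control array, as the change was -0.55 (adjusted p = 0.277) without it, and it was also lost when any 1 of the P0 arrays was left out.

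The endodermis seals the root with the Casparian strip, a lignin ring that CASP proteins position and the peroxidase PER64 helps to polymerise. Of 6 genes with a transcript, 5 were lower and none higher. All 5 were named by the study's tables alone, where 19.9% of genes fell and naming largely followed a change. The 1 member named by the platform table was not called. CASP1 fell from 10.32, 10.12 and 10.04 to 8.78, 8.85 and 8.84 (-1.34 ± 0.28, adjusted p = 0.00334). CASP2 (-1.28), CASP4 (-1.29), PER64 (-1.59) and the suberin regulator MYB92 (-1.41) fell as well, and GSO1, a receptor needed for strip integrity, changed by -0.60 and stayed within the 2-fold limit. In all 5 genes that fell, every P0 array lay below every control array, as in 1608 of the 1744 called falls. The same direction was seen in RCI3, peroxidase 3 of the root, which fell from 10.83, 10.57 and 10.10 to 8.69, 8.70 and 8.75 (-1.78 ± 0.33).

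Of 5 phenylpropanoid and lignin genes with a transcript, all named by the study's tables alone, 3 laccases fell and 2 entry enzymes rose. Of all genes so named 19.9% fell and 40.6% rose. The laccases IRX12, LAC17 and LAC11, which polymerise lignin in xylem and fibres, changed by -1.20, -1.23 and -1.46. PAL2 and 4CL1, which feed the pathway from phenylalanine, rose by 1.35 and 1.37. LAC11 had control levels of 8.21, 8.54 and 6.30 against 6.13, 6.31 and 6.22 at P0, so the third control array fell within the P0 arrays. Its call was lost without the first or second control array or the first P0 array (adjusted p = 0.147, 0.185 and 0.101), and that of LAC17 without the second control array, where its change was -1.0. Named flavonoid genes were not called in either direction (5 with a transcript), among them TT4, the chalcone synthase, at 0.39.

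In Arabidopsis the thalianol and marneral pathways are encoded by clusters of adjacent genes that are expressed in root. Of 5 genes with a transcript, 4 were lower: CYP705A5 (-1.26 ± 0.34), AT5G47980 (-1.40 ± 0.30), CYP71A16 (-1.53 ± 0.32) and MRN1, the marneral synthase (-1.49 ± 0.49). AT5G47980 was the 1 member named by the platform table. Of the 4 named by the study's tables alone 3 fell, where 19.9% of genes fell. MRN1 was at 8.40, 7.91 and 5.67 at P1.25 and at 5.78, 5.69 and 6.03 at P0. The third control array thus lay just below the P0 arrays, and the call of MRN1 was lost without the first or second control array or the second P0 array (adjusted p = 0.181, 0.155 and 0.105).

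Markers were used to see whether whole cell types moved. Of 18 root identity markers 8 had a transcript, and their summed linear intensity ranged from 2189 to 3237 over the control arrays and from 1269 to 1329 over the P0 arrays. Of these 8, the endodermal CASP1, CASP2, CASP4 and PER64 and the triterpene gene MRN1 fell. All of these were named by the study's tables alone, where 19.9% of genes were lower. The summed intensity therefore rests in part on genes named by tables that hold mostly genes chosen for a change. In the root hair list, 3 of 4 members with a transcript were named by the platform table, and none was called. The root hair genes EXPA7 (-0.64), EXPA18 (-0.30) and RHD2 (-0.55) were not called. Shoot cell markers were low in root, with summed intensities over 12 photosynthesis genes of 677 to 1256 at P1.25 and 661 to 700 at P0, against 9335 to 13260 in control shoots. None of the 12 was called in root. JKD, a regulator of radial patterning, fell from 8.55, 8.55 and 8.68 to 7.15, 7.39 and 7.23 (-1.33 ± 0.20, adjusted p = 0.00028). The replication genes PRL (-0.88 ± 0.29) and PCNA1 (-0.92 ± 0.41) were not called, though PCNA1 was called lower without the third control array (-1.15, adjusted p = 0.0996).

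Expansins and xyloglucan endotransglucosylases each held genes that rose and genes that fell. Expansins loosen walls during growth, and 24 of the 28 with a transcript were named by the platform table. Of these 24, 3 were higher and 3 lower, and of the other 4, 1 was higher and 1 lower. Of the expansin-like genes, EXLA3 went from 4.77, 4.72 and 4.53 to 8.01, 7.77 and 8.08 (3.28 ± 0.18, adjusted p = 4.47e-08), EXLA1 rose by 2.34 ± 0.27 and EXLB1 by 1.78 ± 0.28. EXPA15 fell from 7.37, 7.48 and 7.50 to 5.54, 5.54 and 5.7 (-1.86 ± 0.15, adjusted p = 1.43e-06), and the beta-expansin genes EXPB3 and EXPB1 fell by 1.78 and 1.65 on the log2 scale. None of these 6 genes had overlapping arrays, as was so for 1781 of the 1800 called rises and 1608 of the 1744 called falls. Of 10 xyloglucan endotransglucosylases named by the platform table, 3 rose and 2 fell, against 4.99% and 2.45% of all such genes, and of 7 named by the study's tables alone 4 rose and 1 fell. TCH4, the gene known to respond to touch, rose from 6.63, 6.33 and 5.93 to 10.36, 10.20 and 10.18 (3.95 ± 0.34), XTH24 by 2.90, XTH29 by 2.35 and XTH18 by 2.27. XTH31, which is known to act on aluminium binding in root walls, fell by 2.1 on the log2 scale.

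Aquaporins are the water channels of membranes. Of 9 aquaporins with a transcript 6 were lower and none higher. The 6 were all among 8 named by the study's tables alone, where 19.9% of genes fell and naming largely followed a change. GAMMA-TIP, a tonoplast aquaporin, fell from 10.12, 10.09 and 9.68 to 8.51, 8.68 and 8.67 (-1.34 ± 0.24). PIP1;5 (-1.43), PIP1C (-1.24), TIP2 (-1.28), RD28 (-1.67) and PIP2A (-1.01) were the others. The P0 arrays of all 6 lay below the control arrays, as in 1608 of the 1744 called falls. The call of PIP2A, near the 2-fold limit, was lost without any 1 of the arrays other than the third control array (changes of -0.84 to -1.05), after quantile normalization and after centring.

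Of 9 ethylene genes with a transcript 5 were higher, 1 was lower and 3 were not called. All of these calls were among 8 named by the study's tables alone, where 40.6% of genes rose. ACC synthases make the precursor of ethylene, and 3 of them rose: ACS7 from 5.12, 5.13 and 5.00 to 8.48, 8.38 and 8.21 (3.27 ± 0.40, adjusted p = 6.21e-05), ACS2 by 2.26 ± 0.35 and ACS6 by 1.55 ± 0.31. ACS5 went the other way, from 6.47, 5.96 and 5.18 to 4.33, 4.06 and 4.33 (-1.63 ± 0.32, adjusted p = 0.00208). EFE, an ACC oxidase, rose by 1.1 and the response factor ERF1 by 1.40. All 7 jasmonate genes with a transcript were higher, 6 of them named by the study's tables alone. Beside JRG21 they included the synthesis genes LOX3 (3.03 ± 0.38) and AOC3 (1.58 ± 0.31) and the repressor genes JAZ5 (2.41), JAZ7 (1.71) and JAZ1 (1.47). Of these hormone genes only JRG21 and 1 ethylene gene that was not called were named by the platform table.

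Of 5 cytokinin response genes with a transcript 3 were lower, all of them named by the study's tables alone, where 19.9% of genes fell. The 2 named by the platform table were not called (median -0.13). The 3 that fell were response regulators of type A, which cytokinin switches on. ARR7 fell from 7.24, 7.21 and 6.52 to 5.87, 5.71 and 5.32 (-1.35 ± 0.23), RR3 by 1.07 and ARR6 by 1.04 on the log2 scale. The calls of RR3 and ARR6 lay near the 2-fold limit. That of ARR6 was lost without the first or second control array or the third P0 array (-0.79, -0.99 and -0.96), that of RR3 without the first control array or the first P0 array (-0.96 and -0.97), and both after centring on the array median.

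Enzymes that conjugate, oxidise or detoxify small molecules changed in both directions. Among UDP-glycosyltransferases named by the platform table, 10 of 48 (against 4.99% of all such genes) were higher and 1 was lower. UGT73C7 rose from 5.03, 5.32 and 4.42 to 8.75, 8.83 and 8.84 (3.88 ± 0.40, adjusted p = 1.61e-05) and UGT73B4 from 5.94, 6.05 and 5.87 to 8.94, 8.94 and 9.09 (3.04 ± 0.47). Of 13 glutathione transferases with a platform name, 2 rose and 3 fell, against 4.99% and 2.45% of all such genes. All 13 calls among the 14 named by the study's tables alone were rises, where 40.6% of genes rose. GSTU23 was the clearest fall, from 5.84, 5.88 and 5.71 to 4.38, 4.34 and 4.1 (-1.54 ± 0.19, adjusted p = 6.93e-05). Of 26 cytochrome P450 genes named by the platform table, 3 were higher and 2 lower, against 4.99% and 2.45% of all such genes. Of 43 named by the study's tables alone 15 were higher and 14 lower, against 40.6% and 19.9% of all such genes. The share of rises among these was thus not above that of all such genes. CYP72A8 (3.41) and CYP706A2 (3.07) rose, and CYP71A27 (-1.63) fell.

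Of 6 respiratory and glycolytic bypass genes with a transcript 3 were higher and 3 were not called. The 2 named by the platform table (median 0.23) were among the latter. The 3 rises were among 4 named by the study's tables alone, where 40.6% of genes rose. The alternative oxidases pass electrons around the phosphorylating part of the mitochondrial chain. AOX1D rose from 4.43, 4.89 and 4.96 to 8.60, 8.62 and 8.46 (3.80 ± 0.70, adjusted p = 0.00137) and AOX1A from 6.21, 6.17 and 6.10 to 8.12, 8.06 and 8.01 (1.91 ± 0.37). ERF73, a factor of the response to low oxygen, had a log2 change of -1.70, and the haemoglobin gene HB1 (-0.53) was not called.

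WRKY transcription factors are known from defence and stress responses. Of 28 with a transcript 20 were higher and none lower. Of these, 2 were among 7 named by the platform table, where 4.99% of all genes rose. The other 18 were among 21 named by the study's tables alone, where 40.6% of genes rose. Of 5 glucosinolate and camalexin genes, all named by the study's tables alone, 4 were higher, beside the same share of 40.6%. WRKY41 rose from 5.06, 5.38 and 5.00 to 8.93, 8.62 and 8.73 (3.62 ± 0.34, adjusted p = 7.74e-06), WRKY71 by 3.27 and WRKY48 by 2.34. PAD3, which makes the antimicrobial compound camalexin, rose from 5.14, 5.10 and 5.61 to 8.00, 7.95 and 8.05 (2.71 ± 0.51), and CYP79B2 (1.48), CYP81F2 (1.46) and NSP3 (1.68), of indole glucosinolate synthesis and glucosinolate breakdown, rose as well. Among beta-glucosidases, a group chosen after the values had been seen, 10 of 24 named by the platform table were higher and none lower. Of all genes so named 4.99% were higher. Receptor genes named by the study's tables followed: CRK10, a cysteine-rich receptor kinase, rose by 2.11 ± 0.16 and RLP38, a receptor-like protein, by 4.06 ± 0.73. Small cysteine-rich peptides were mostly not called, as only 2 of 83 named by the platform table were higher and 1 was lower, against 4.99% and 2.45% of all such genes.

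**Figure D4:**
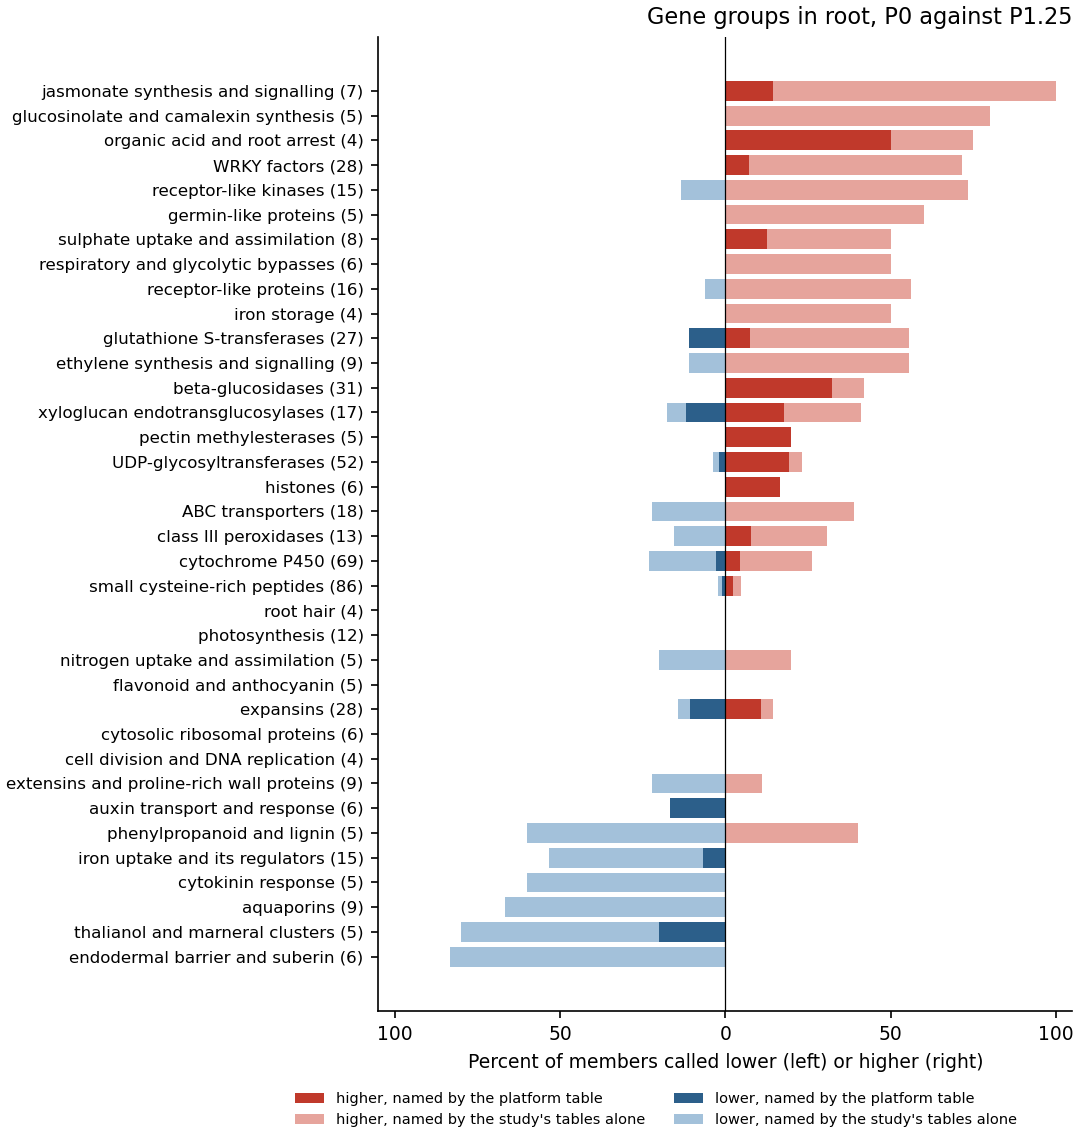
Share of the members of each gene group that were called higher (right) or lower (left) in root at P0, for groups with at least 4 members with a transcript (their number in brackets). Dark bars are members named by the platform table. Light bars are those named by the study's tables alone, which hold mostly genes chosen for a change. Of the jasmonate genes 7 of 7 were higher and of the endodermal barrier genes 5 of 6 lower, with 6 and 5 of these calls in light bars.

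Some of the genes that rose lie next to each other on the chromosome. Of 10353 pairs of adjacent protein-coding genes that the platform table names, 101 (0.976%) were called in the same direction and 18 (0.174%) in opposite directions. These runs were picked after their values had been seen and are a description. The longest run held 7 consecutive genes of chromosome 5, AT5G52670 to AT5G52730, of which AT5G52670, AT5G52700 and AT5G52710 are annotated as copper transport proteins. All 7 rose, by 1.53 (AT5G52730) to 4.87 (AT5G52700). AT5G52680, for example, went from 3.57, 2.80 and 4.49 to 7.36, 7.49 and 7.31. Another run on chromosome 5 held 6 genes, AT5G22520 to AT5G22555, with rises of 1.28 to 3.88. On chromosome 3, BGLU27 (4.89), BGLU16 (1.81) and DIN2 (4.32) stood side by side. The germin-like gene AT5G39130 (3.42) and its neighbours AT5G39110 (3.14) and AT5G39120 (4.93) formed a run, as did UGT73B1, UGT73B2 and UGT73B3 (1.45 to 2.13). The genes of such runs can be similar in sequence, and probes that bind several copies would give shared changes. Whether they did was not tested. Of 25 runs of at least 3 genes, 23 rose. Of all named genes 1275 were called higher and 625 lower, so more runs of rises follow in part from these counts.

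The spread between arrays differed between the groups and between rises and falls. The median SD over 3 arrays was 0.17 at P0 and 0.21 at P1.25. The pooled SD had a median of 0.23 among rises and 0.36 among falls, against 0.22 for all transcripts. Of the calls, 1390 of the 1800 rises but 804 of the 1744 falls were called in every fit that left out 1 of the 6 arrays. The third control array held 41.9% of the squared deviation in its group, against 31.5% and 26.6% for the others, while the P0 arrays held 30.1% to 35.8%. For 184 falls and 78 rises this array lay past the midpoint between the other control arrays and P0, against 134 and 75 for the first control array and 51 and 19 for the second. Beside FRO2 and IRT1, the called genes with the widest spread were AT4G22490, a lipid-transfer family gene at 3.04, 4.18 and 6.61 at P1.25 and 6.58, 6.41 and 6.34 at P0, and its neighbour AT4G22485 at 3.95, 4.14 and 7.06 and 6.48, 6.65 and 6.67. The third control array lay above the P0 arrays for both. Without it they changed by 2.83 and 2.56, and without the first control array by 1.05 and 1.00 and with no call. Leaving out the second control array, or any P0 array, also ended both calls. At the other end, AT3G59350 was at 6.5, 6.48 and 6.51 and at 7.85, 7.83 and 7.83, AT1G13990 at 6.70, 6.69 and 6.73 and at 7.82, 7.83 and 7.87, MUR4, an epimerase that makes UDP-arabinose for the wall, at 7.21, 7.24 and 7.21 and at 8.33, 8.30 and 8.28, and ASA1, of tryptophan synthesis, at 9.26, 9.30 and 9.23 and at 10.92, 10.91 and 10.90.

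The change in shoot was compared with that in root. The difference between the root change and the shoot change was tested in the same model, at an adjusted p of 0.1, which 17.1% of all transcripts passed. The genes below were chosen for their root change, so a smaller change in shoot follows in part from the choice, and their counts (15 of the 20 largest falls and 12 of the 20 largest rises passed) are a description. SLAH1 changed by -3.85 in root and -0.39 in shoot (difference -3.46, adjusted p = 1.16e-05) and AT4G12545 by -4.50 and -0.18 (difference -4.31, adjusted p = 0.00122). For FRO2 (-4.19 and -0.01) and IRT1 (-2.83 and 0.42) the difference did not pass (adjusted p = 0.224 and 0.146). AT1G73600 fell in both organs, by 4.29 and 3.35 on the log2 scale. Of the rises, BGLU31 changed by 4.37 in root and 0.85 in shoot (difference 3.52, adjusted p = 0.000126), whereas AT5G39120 changed by 4.93 and 5.01 and OCT1 by 4.18 and 4.68.

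Some genes of the endodermis and of the triterpene clusters were lower in root and higher in shoot, picked here after their values had been seen. CASP1 changed by -1.34 in root and 1.59 in shoot (difference -2.93, adjusted p = 0.000379), PER64 by -1.59 and 1.23 (-2.82, adjusted p = 0.00112), RCI3 by -1.78 and 1.15 (-2.94, adjusted p = 0.00128) and CYP705A5 by -1.26 and 1.8 (-3.07, adjusted p = 0.00101). CASP4 (-1.29 and -0.08) did not share this pattern. The summed intensity of the 8 root identity markers was 276 to 369 in control shoots and 599 to 652 in shoots at P0, and that of the 12 photosynthesis genes, 9335 to 13260 in control shoots, was 4668 to 4957 at P0. The part of root cells or root RNA in the shoot values was not tested.

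**Figure D5:**
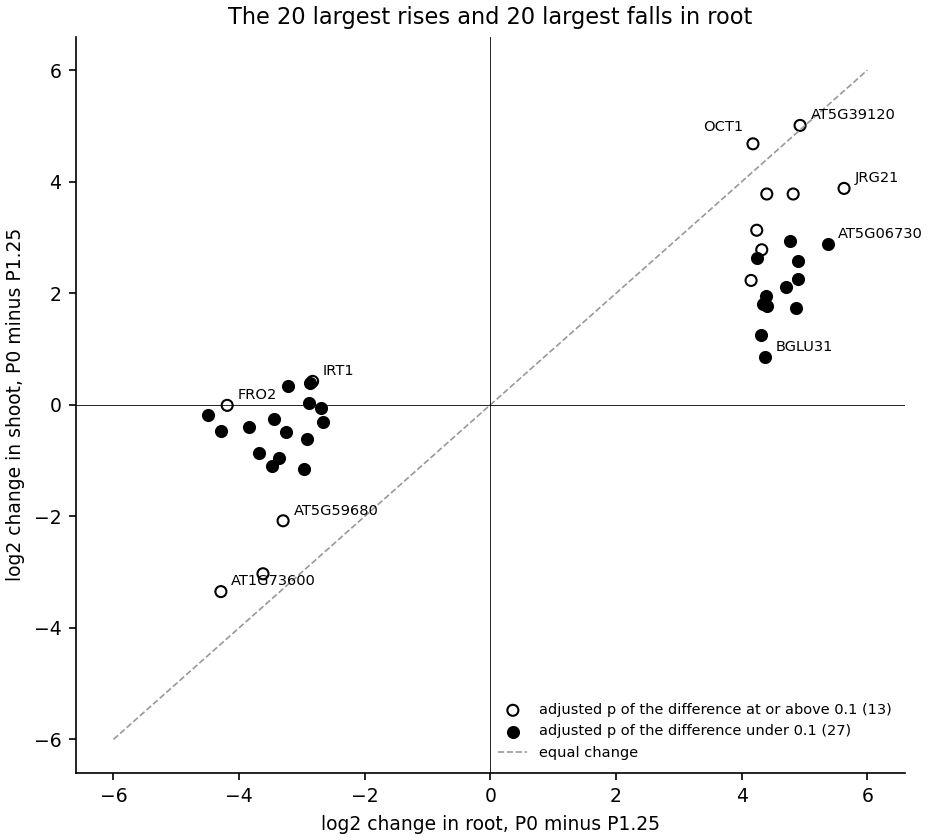
log2 change at P0 in shoot (vertical) against that in root (horizontal) for the 20 largest rises and 20 largest falls in root. Filled points (27) passed the test of the difference between organs and open points (13) did not. Genes were chosen for their change in root. SLAH1 lies at -3.85 in root and -0.39 in shoot, and AT5G39120 at 4.93 and 5.01.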

How the data were processed

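RNA of root and shoot at 3 phosphate supplies was measured on 18 AraGene 1.0 ST arrays. The authors normalized the intensities by RMA at gene level in Partek Genomics Suite 6.6 and deposited log2 values, which were used here without further scaling. RMA assumes like distributions on all arrays, so the balance of rises and falls depends on the scaling. Columns of other samples numbered 0, the genome build is not given in the sources used here, and an array gives no counts or depth.

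Each transcript was fitted with 6 group means in limma 3.58.1 in R 4.3.3 (2.43 prior and 12 residual degrees of freedom). Root P0 was compared with root P1.25 and the tissue difference was tested as an interaction. The Benjamini-Hochberg adjustment of p-values ran over all 38408 transcripts. Following the methods, a call needed an adjusted p under 0.1 and a change beyond 2-fold, and the tissue difference an adjusted p under 0.1. The fit was tested on simulated data. Python 3.11.15 with pandas 2.3.3 and matplotlib 3.10.9 made summaries and figures.

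Transcripts were named by the platform table and, where it has none, by the portion used of the study's supplementary tables, which also hold the authors' fold changes and p-values. These were not used. Where a gene had more than 1 transcript, that of highest mean level stood for it. Genes next to each other were found in the RefSeq gene order.

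Members and lists (22 of genes and 20 of symbol patterns) were chosen with earlier results of these data known, and 2 more patterns, beta-glucosidases and receptor-like proteins, after the values had been seen. Lists are described by counts and medians, with no set test. Genes in the text are the 20 largest rises and 20 largest falls with separate arrays outside the classic set, up to 6 called members of each list with the smallest adjusted p (or 2 members where none was called), and the 4 called genes with the smallest and largest spread. Another 20 named genes fall outside this rule and were chosen after their values were seen. Alternatives covered the error model, the arrays, a replicate block, the transcripts tested, the scaling and the limits.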

Additional observations from a re-analysis of the deposited data

Results flagged for a closer look

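A closer look is due where the change at P0 differed between root and shoot, tested in the model as the difference of the 2 changes. It passed an adjusted p of 0.1 for 6562 transcripts, 17.1% of all. The values below are the root change minus the shoot change on the log2 scale.

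Genes that rose more in root than in shoot included many of the leading rises. The differences were 3.52 for BGLU31, 3.14 for AT5G52700, 3.04 for SBT3.3, 2.64 for both BGLU27 and AT1G57630, 2.6 for PA2, 2.54 for YLS9, 2.49 for AT5G06730, 2.43 for NHL25, 2.33 for BHLH92, 1.84 for AT1G55525 and 1.6 for XTR6. Wall genes followed, with 2.61 for EXLA3, 2.53 for TCH4, 2.12 for ATPMEPCRB and 1.81 for EXLA1. Of the defence and detoxification genes, RLP38 had 4.13, WRKY41 3.15, WRKY71 2.26, CYP72A8 2.27, UGT73B1 1.79, ABCC7 1.56, BGLU16 1.52, CRK10 1.47, CYP706A2 1.41 and NSP3 0.53. Genes of runs on the chromosome had 3.48 (AT5G52680), 2.72 (AT5G22520), 2.28 (AT5G39130) and 1.88 (AT5G52730). Hormone and nutrient genes had 2.0 (LOX3), 1.91 (NRT1.8), 1.87 (ACS7), 1.38 (AT1G21140), 1.12 (FER1), 1.1 (SULTR2;1) and 0.97 (LPR2).

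Genes that fell in root and had a higher value of the change in shoot had differences of -4.31 (AT4G12545), -3.81 (AT3G01260), -3.56 (AT1G74770), -3.46 (SLAH1), -2.91 (LCR85), -2.83 (AT2G22122), -2.46 (FRU), -2.36 (AT2G44340) and -1.63 (IREG2). Endodermal, lignin and patterning genes had -2.94 (RCI3), -2.93 (CASP1), -2.82 (PER64), -2.06 (CASP2), -1.98 (MYB92), -1.68 (IRX12), -1.65 (LAC17), -1.28 (JKD) and -1.21 (CASP4). Triterpene and other P450 genes had -3.07 (CYP705A5), -2.68 (CYP71A16 and CYP71A27), -2.0 (MRN1) and -1.90 (AT5G47980). Others were ERF73 (-1.96), XTH31 (-1.68), EXPA15 (-1.67), EXPB1 (-1.66), GSTU23 (-1.51), ACS5 (-1.50), GAMMA-TIP (-0.92) and ABCB19 (-0.66).

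A smaller group rose in root by less than its change in shoot: SPX3 (-1.92), HIS1-3 (-1.37), EXLB1 (-1.23), SULTR1;3 (-1.09) and SULTR3;4 (-1.06). The difference also passed for genes that were not called in root, which were TT4 (-2.63), RHD2 (-1.57), GSO1 (-1.27), EXPA18 (-1.07), EXPA7 (-1.04) and NIR1 (-0.63). The summed root identity markers were higher in shoots at P0 than in control shoots (599 to 652 against 276 to 369), and their part in these differences was not tested.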

How the results depend on the processing

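The count of calls kept within 1.5 times its value under most alternatives, from 2880 with identical values counted once to 3915 with array weights. It moved to 1242 (835 higher, 407 lower) when only transcripts named by the platform table were tested, which is fewer transcripts, and to 11095 (4136 higher, 6959 lower) at any fold. Leaving out 1 of the 6 arrays gave 3215 to 3575 calls, 1736 to 1844 of them higher and 1450 to 1731 lower. Counting identical values once gave 1715 rises and 1165 falls. The tissue difference was called for 5215 to 6543 transcripts when 1 array was left out and for 11487 when the third array was left out at both P1.25 and P20, a setting chosen after the values had been seen. The cause of that increase was not tested. Same-numbered arrays of P0 and P1.25 had deviations correlated at 0.009, 0.011 and 0.058, and arrays of different numbers at -0.055 to 0.048. Deviations from means of 3 arrays cannot show whether same-numbered arrays came from 1 experiment. The replicate block gave 3529 calls and changed no call among the named genes.

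Of 153 named genes 139 were called and 125 of these were called under every alternative fit that tested them. The others were ARR6, AT4G22485, AT4G22490, FRO2, IREG2, IRT1, LAC11, LAC17, MRN1, NAS1, NRT2:1, PIP2A, RR3 and bHLH39. For these single genes the limits of adjusted p and fold were kept, and other limits were tried for the counts alone. With only the 9 root arrays or only the 6 arrays, FRO2 had adjusted p-values of 0.157 and 0.104 (limma). With the 9 root arrays, 4 instead of 8 genes of iron uptake and its regulators were called lower. No called gene changed direction. LPR1, which was not called, had -0.03 in the comparison and -0.17 to 0.07 when 1 array was left out, being above 0 without the first (0.01) or second control array (0.07), and turned to 0.08 after quantile normalization and to 0.07 after centring. With 3 arrays a group, the number of arrays limits the precision, and an exact test could not give a two-sided p below 0.1.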

Other observations

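Transporters of the ABC family were named by the study's tables alone, with 7 of 18 higher and 4 lower, which is near the 40.6% and 19.9% of all genes so named. ABCG40, a transporter known for abscisic acid, was at 4.59, 5.15 and 5.17 at P1.25 and at 8.12, 8.16 and 8.08 at P0 (3.15 ± 0.59), and ABCC7 rose by 2.6 ± 0.37. ABCB19, an auxin exporter, fell from 9.15, 9.23 and 9.12 to 8.02, 8.00 and 7.93 (-1.18 ± 0.12, adjusted p = 1.22e-05, limma). Its P0 arrays all lay below the control arrays, as in 1608 of the 1744 called falls.

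The 6 cytosolic ribosomal protein genes with a transcript had a median change of -0.73 and none was called, for example RPS15A with 9.22, 9.15 and 9.10 at P1.25 and 8.32, 8.29 and 8.25 at P0. Of 3 nucleolar genes 1 was lower: FIB2, the nucleolar fibrillarin, fell by 1.24 ± 0.15 on the log2 scale. Of 9 extensins and proline-rich wall proteins with a transcript 1 was higher and 2 were lower. All of these calls were among 7 named by the study's tables alone, where 40.6% of genes rose and 19.9% fell. EXT4, an extensin, rose by 2.36 ± 0.44. Of 5 genes of the pectin methylesterase group 1 was higher, ATPMEPCRB (2.02 ± 0.33). Of 6 histones 1 was higher, the linker histone HIS1-3 (1.58 ± 0.23). In the symbol list of germin-like proteins 3 of 5 were higher, among them GLP4 (2.98 ± 0.38). All 5 were named by the study's tables alone, where 40.6% of genes rose. The list matched symbols only and left out the germin-like gene AT5G39130. That gene and its neighbours AT5G39110 and AT5G39120, named by the platform table, rose by 3.14 to 4.93.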
